A study of Mus musculus with 87 samples.

Results

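The comparison set mouse embryonic stem cells (ESC) that lack their own Suz12 and carry a long-isoform rescue (KO-L, 2 samples) against wild-type ESC (WT, 3 samples). The members were chosen by a rule on read level alone, a mean normalized read count (baseMean) of at least 10 over the 5 samples in the authors' deposited table of this comparison, which kept 14742 of 26171 gene symbols. All samples are polyadenylated RNA from the ESC line 129-B13, grown in 20% serum with LIF, and the KO-L label reads as a full Suz12 knock-out to which the long isoform was added back. The labels do not say how many clones each group comes from, and the series' text names Rosa26 as the site of the rescue only for related lines in which the rescue is also mutated. The 3 ESC groups used beside it were the Suz12 full knock-out without rescue (KO, 3 samples), the knock-out with the short isoform (KO-S, 2) and wild-type cells in which exon 4 is made constitutive (CSex4, 2). The whole series holds 87 samples, of ESC and of neuronal precursors, with chromatin immunoprecipitation as well as RNA.

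SUZ12 is the scaffold subunit of Polycomb repressive complex 2 (PRC2), in which EZH2 or EZH1 methylates lysine 27 of histone H3 (H3K27me3) and EED reads that mark. In ESC the complex sits at CpG-rich start sites of developmental regulators, many of which stay silent until differentiation begins. Exon 4 of Suz12 is alternatively spliced, so a gene makes a long protein with it and a short protein without it. A line with only the long form asks which genes keep their wild-type level when the short form is missing.

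Library values could be given because the deposited means of the 7 ESC tables share the WT libraries and carry enough digits to return the whole reads of each library. Reads were recovered for 22026 of 22130 genes with any read, and every value "per library" below is such a read number divided by the size factor of the KO-L table. The 5 libraries held 21662825 to 25782704 recovered reads. Libraries are numbered in the order in which they were found, which need not be the replicate number of the labels. Nothing in the labels says that samples of a group come from separate cultures, so any spread that a p-value measures may be technical.

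WT library 3 stood apart from WT libraries 1 and 2. Among 11006 genes with a mean of at least 100, WT 1 and WT 2 differed by over 2-fold in 0.691%, WT 1 and WT 3 in 4.69%, and WT 2 and WT 3 in 8.41%, against 3.93% between KO-L 1 and KO-L 2. Markers of primitive endoderm, the extraembryonic lineage that forms beside the epiblast, moved with this library: the sum over 16 markers was 14858, 14556 and 89666 normalized reads in WT 1, 2 and 3 and 24774 and 22651 in KO-L 1 and 2, and Cubn alone read 26.7, 14.2 and 4466 in WT and 55.2 and 26.8 in KO-L. Transthyretin (Ttr), a marker of the same lineage, was at 0 in all 5. The fold changes in the authors' deposited table equal those of a fit that pairs WT 2 with KO-L 1 and WT 3 with KO-L 2: such a fit met the deposited value within 0.0001 for 286 of 300 genes (95.3%). WT 1 has no partner in that fit and adds almost nothing to a fold change, so WT 3 stands in each deposited value as a partner of KO-L 2. The p-values of such a fit compare these pairs and do not measure the spread among all WT libraries. Results are therefore also given against the mean of WT 1 and WT 2 where they turn on it. A list's median covers only members at or above the read minimum, which a gene can reach through the group where it is high, so it describes those members and supports nothing.

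Markers of undifferentiated ESC held no call, which does not show that they were unchanged. None of the 13 tested markers was called in either direction, and their deposited log2 fold changes ran from -0.90 to 1.23. Of 11 with library values, both KO-L libraries lay below all WT libraries for 4 and above them for 2 (all genes, 21.0% and 17.8%). Pou5f1 read 25052, 28213 and 28715 normalized reads in WT and 25457 and 21852 in KO-L. Sox2 read 10636, 9636 and 11481 in WT and 8674 and 6913 in KO-L, below all WT libraries. Y-linked genes were uneven within WT: Uty read 655, 22.7 and 902 in WT 1, 2 and 3 and 55.2 and 44.3 in KO-L.

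Suz12 itself was read in every library, at 4364, 5617 and 8495 normalized reads in WT and 3137 and 3543 in KO-L. Both KO-L libraries lay below all 3 WT libraries. The authors' deposited table gives a log2 fold change of -1.05 ± 0.28 (SE) with an adjusted p of 0.0143, and the KO-L mean was 0.669 times the mean of WT 1 and WT 2. The KO without rescue still held 1603, 2475 and 1201 normalized reads, fewer than either KO-L library, and KO-S held 3896 and 3869. Reads per gene do not separate transcripts of the disrupted locus from those of the rescue, nor the long isoform from the short, so these values check only that KO-L holds more Suz12 reads than KO.

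No other PRC2 subunit passed the authors' test, which does not show that they were level. All 6 core subunits, Suz12 among them, had a deposited log2 fold change below 0. For 5 of these 6 both KO-L libraries lay below all WT libraries (all genes, 21.0%). Ezh2, the main methyltransferase, read 7400, 6203 and 6192 in WT and 5131 and 5324 in KO-L, and Eed read 6154, 6905 and 7449 in WT and 5899 and 5299 in KO-L. In the authors' deposited table their log2 fold changes were -0.25 ± 0.27 and -0.36 ± 0.27, with adjusted p of 0.954 and 0.818. Among the 6 accessory subunits, which steer PRC2 to its sites, the smallest p values belonged to Epop and Mtf2, at adjusted p of 0.215 and 0.538 in the authors' deposited table. Epop was uneven within KO-L, at 16964 and 4924 normalized reads against 3896, 6125 and 4203 in WT. Mtf2 read 9482, 8863 and 11080 in WT and 7671 and 5960 in KO-L, below all WT libraries. Of 21 PRC1 subunits, which bind or act beside the H3K27me3 mark, none was called.

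Across the 14742 genes, the authors' deposited table calls 202 higher and 107 lower in KO-L (adjusted p under 0.05), which is 1.37% and 0.726% of the genes tested. The rises had a median log2 fold change of 1.99 and the falls of -1.31, while the median gene stood at -0.014. Of the 307 called genes with library values, 296 had KO-L libraries that did not overlap the WT libraries, where over all genes both KO-L libraries lay above all WT libraries in 17.8% and below them in 21.0%. Since these genes were called on the same libraries, nothing follows from that number.

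WT 3 sat at the far end of WT for most called genes: it was the lowest WT library for 169 of the genes called higher and the highest for 98 of those called lower, where it was lowest for 41.5% and highest for 40.4% of all genes. Against the mean of WT 1 and WT 2, the genes called higher had a median log2 ratio of 1.5 and 173 were at least 2-fold up, whereas the genes called lower had a median of -0.99 and 52 were at least 2-fold down. A refit of the recovered reads with limma-voom, which estimates the spread from all 5 libraries, called 0 genes at an adjusted p under 0.05, with 2497 of 14638 at an unadjusted p under 0.05. All 307 genes kept their direction in that refit and 281 of them had an unadjusted p under 0.05. Both counts come from the libraries on which these genes were called, so nothing follows from them. The calls below are the authors', and which genes pass depends on the test.

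**Figure D1:**
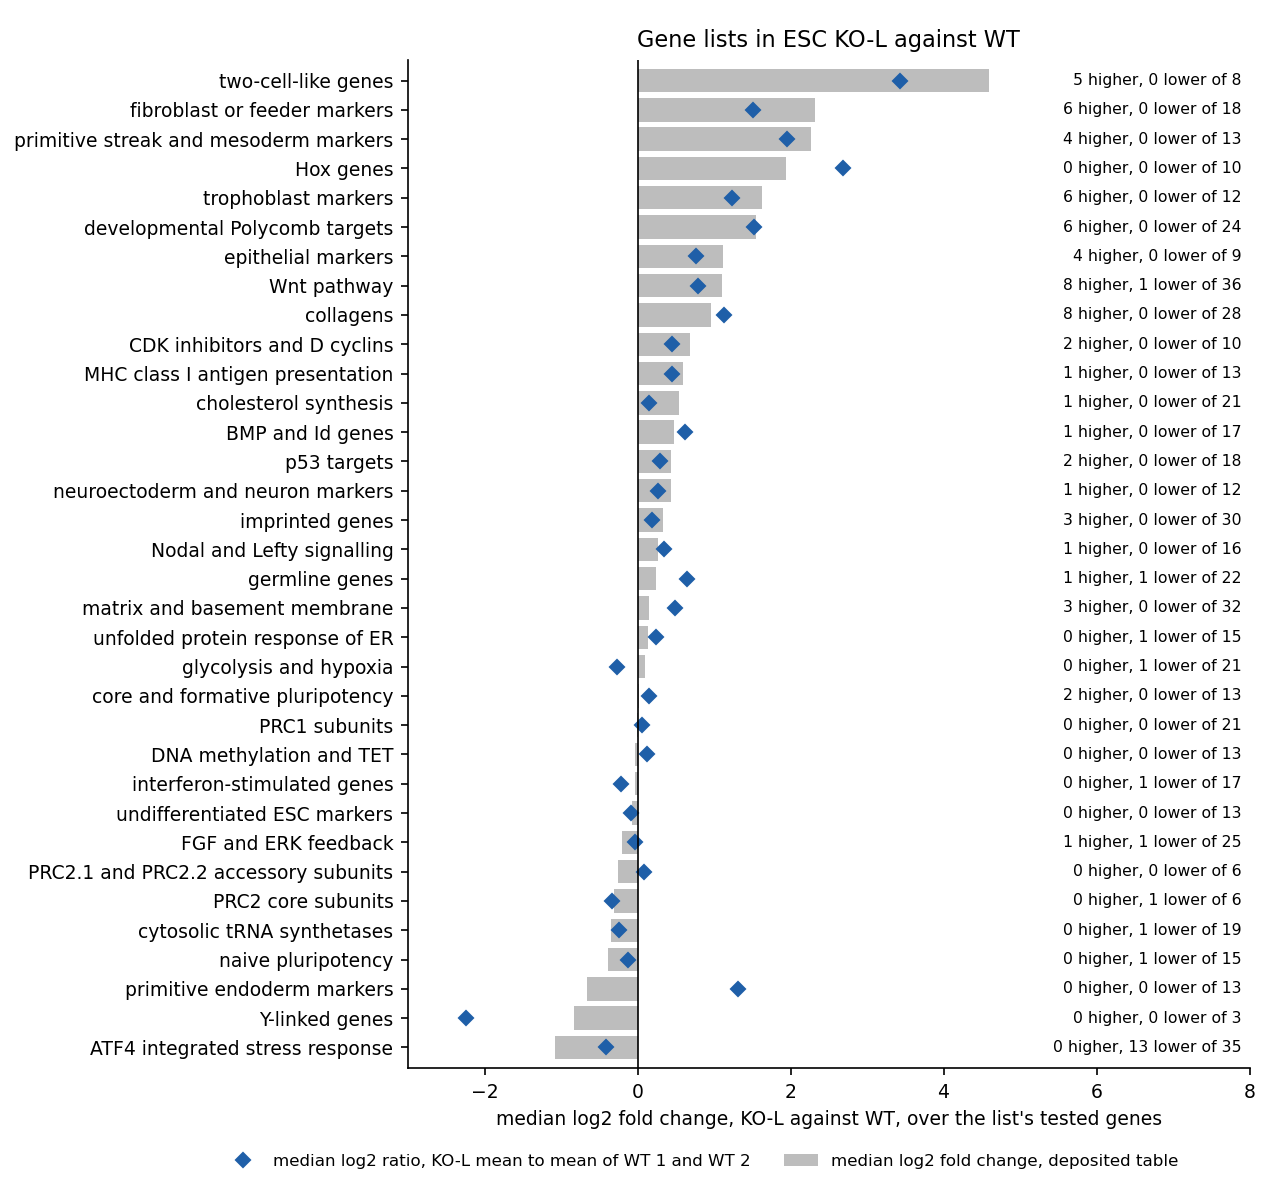
Median log2 fold change over the tested members of each of 34 gene lists, KO-L against WT. Grey bars are the authors' deposited values, diamonds the log2 ratio of the KO-L mean to the mean of WT 1 and WT 2, and the text gives the genes called higher and lower. The ATF4 list lies lowest at a deposited median of -1.08, and against WT 1 and WT 2 it stands at -0.42; the bars of Hox and 2-cell-like genes rest largely on members that reach the read minimum through KO-L 1.

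The genes that rose lay largely at Polycomb regions. The deposited lists hold 2865 Suz12 and 6882 H3K27me3 regions, headed as WT regions that DiffBind called at a false discovery rate of 5%, with no word on what WT was compared with. A gene was placed at a region within 2500 bp of its start (for 3069 genes whose start is not in the promoter table, of either end of the gene). Of 1680 genes at a Suz12 region 101 rose (6.01%) and 9 fell, of 1631 at an H3K27me3 region only 38 rose (2.33%) and 8 fell, and of 11429 at neither 63 rose (0.551%) and 90 fell. So 101 of the 202 genes called higher lay at a Suz12 region, against 11.4% of all genes.

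The shift was not limited to called genes. The median gene at a Suz12 region had a log2 fold change of 0.59 in the authors' deposited table, against 0.18 at H3K27me3 regions only and -0.068 at neither. Relative to WT 1 and WT 2 the same 3 medians were 0.59, 0.19 and -0.062. Both KO-L libraries lay above all WT libraries for 44.3% of genes at Suz12 regions and for 12.2% of genes at neither. The classes too hold only genes at or above the read minimum, which a gene can reach through KO-L alone. These medians and shares therefore describe those genes only. Without WT 3, limma-voom gave 532 of the 1680 genes at Suz12 regions an unadjusted p under 0.05 with a rise and 27 with a fall. It gave 9.22% of all genes such a p with a rise and 7.41% with a fall. In KO, which shares the WT libraries, the median of the Suz12 class was 0.61. The authors' deposited table of KO calls 524 of the 1680 genes higher (31.2%), where it calls 10.7% of all genes tested higher and 8.42% lower.

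**Figure D2:**
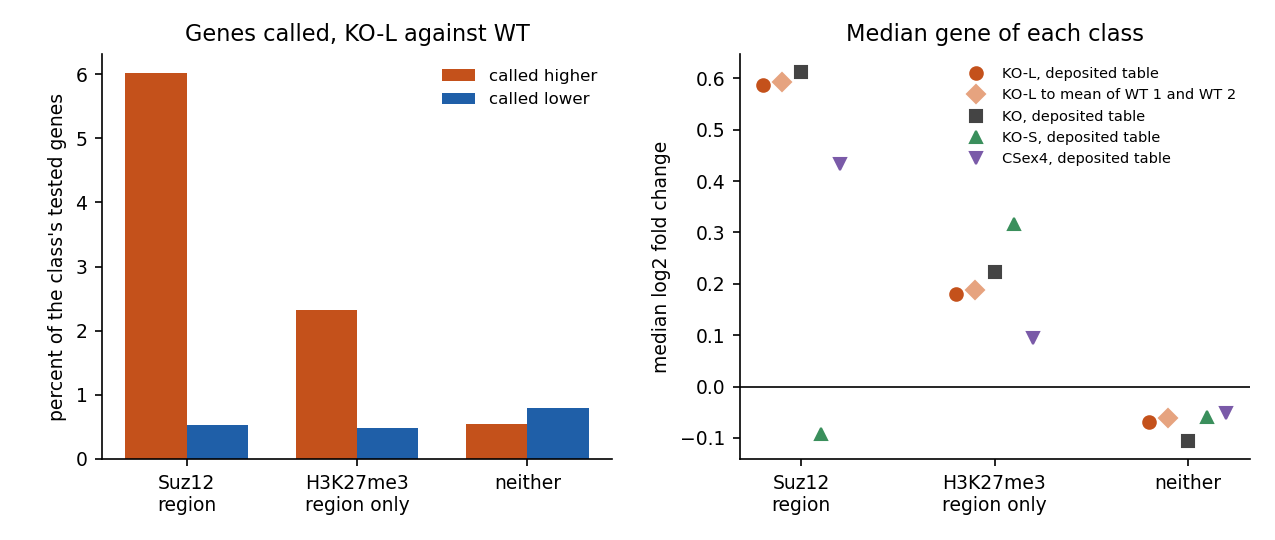
Left, the percent of tested genes called higher or lower in KO-L against WT by class of gene start (at a Suz12 region, at an H3K27me3 region only, at neither). Right, the median log2 fold change of each class in KO-L and in 3 other ESC groups that share the WT libraries. At Suz12 regions KO-L stands at 0.59, KO at 0.61, CSex4 at 0.43 and KO-S at -0.092.

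T and Wnt3 are given as examples of such a start, picked after their values were seen, and need not be typical. T lies in a Suz12 region at chr17:8430616-8436344 that is 5729 bp wide, inside an H3K27me3 region of 11844 bp. The Suz12 region at Wnt3, chr11:103770406-103775712, is 5307 bp wide. Their 250 bases before the gene start follow, from RefSeq on build GRCm38.p6, both on the plus strand, 5′ to 3′, at chr17:8434173-8434422 for T and chr11:103773925-103774174 for Wnt3. Capitals mark CG dinucleotides. T has 14 of them and Wnt3 22, counts that are not set against other genes here.
T: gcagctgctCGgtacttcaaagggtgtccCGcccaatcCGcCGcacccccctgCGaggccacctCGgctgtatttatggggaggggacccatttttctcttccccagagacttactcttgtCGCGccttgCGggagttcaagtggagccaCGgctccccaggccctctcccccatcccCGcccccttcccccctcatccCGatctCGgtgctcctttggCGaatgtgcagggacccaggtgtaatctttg
Wnt3: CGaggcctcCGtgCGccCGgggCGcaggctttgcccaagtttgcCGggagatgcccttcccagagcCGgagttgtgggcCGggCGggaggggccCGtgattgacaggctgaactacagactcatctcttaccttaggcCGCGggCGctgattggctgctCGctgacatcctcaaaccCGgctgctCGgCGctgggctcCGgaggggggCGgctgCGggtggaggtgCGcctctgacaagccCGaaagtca

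Some genes of the primitive streak and of the Wnt pathway rose, with T and Wnt3 in both lists. The streak is the site of gastrulation, where Wnt3 and Nodal signals switch on T (brachyury) and Eomes in cells that leave the pluripotent state. T read 10.1, 4.73 and 6.45 normalized reads in WT and 168 and 177 in KO-L, so all 3 WT libraries were near background and both KO-L libraries far above them. Its log2 fold change in the authors' deposited table was 4.96 ± 0.80 with an adjusted p of 7.10e-07, and the KO-L mean was 23.2 times that of WT 1 and WT 2. Wnt3, the ligand that starts the streak, read 54.4, 41.6 and 10.7 in WT and 227 and 358 in KO-L, with no overlap. The authors' deposited table puts its log2 fold change at 3.66 ± 0.67, adjusted p 2.32e-05.

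Among Wnt ligands, Wnt8a and Wnt4 also rose. Wnt8a read 11.1, 11.4 and 1.07 in WT and 100.2 and 105 in KO-L, and Wnt4 read 148, 125 and 59.1 in WT and 274 and 451 in KO-L. The deposited log2 fold changes of the authors' table were 4.45 ± 1.02 and 2.02 ± 0.53. Of the receptors, Fzd10 rose, with 101, 140.0 and 88.1 in WT and 527 and 430.4 in KO-L, and Fzd7 fell, with 4981, 4421 and 5292 in WT and 2027 and 3196 in KO-L. The direct read-outs of the pathway that rose were the feedback inhibitor Axin2, the transcription factor Sp5 and the caudal-type factor Cdx1. Axin2 read 158, 181 and 161 in WT and 518 and 497 in KO-L, Sp5 48.8, 29.3 and 14.0 in WT and 153 and 263 in KO-L, and Cdx1 19.3, 24.6 and 20.4 in WT and 243 and 85.5 in KO-L. Cdx1 was uneven within KO-L, although neither library overlapped WT.

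Over the whole Wnt list, 8 of 36 tested members rose and 1 fell in the authors' deposited table (all genes, 1.37% and 0.726%). Its median log2 fold change was 1.10 there and 0.79 relative to WT 1 and WT 2. By limma-voom without KO-L 1 it was 0.72. Of its 8 members called higher, 7 lay at a Suz12 region and Wnt8a at an H3K27me3 region only. Of 13 streak and mesoderm markers 4 rose (T, Eomes, Wnt3 and Hand1) and none fell, where 1.37% of all genes rose and 0.726% fell. The median of these markers was 2.27 in the authors' deposited table and 1.95 against WT 1 and WT 2. Their summed level was 375, 395 and 377 normalized reads in WT and 1826 and 1279 in KO-L. Eomes read 109.6, 129.6 and 91.3 in WT and 420.4 and 261 in KO-L, and Lefty2, a secreted Nodal antagonist, read 4159, 3020 and 2046 in WT and 7753 and 6518 in KO-L. Fgf5, a gene of the formative epiblast, read 84.8, 142 and 19.3 in WT and 233 and 385 in KO-L, and Zic2 read 448, 534 and 439.5 in WT and 1335 and 906 in KO-L. Their deposited log2 fold changes in the authors' table were 1.61, 1.52, 2.44 and 1.18, all called.

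**Figure D3:**
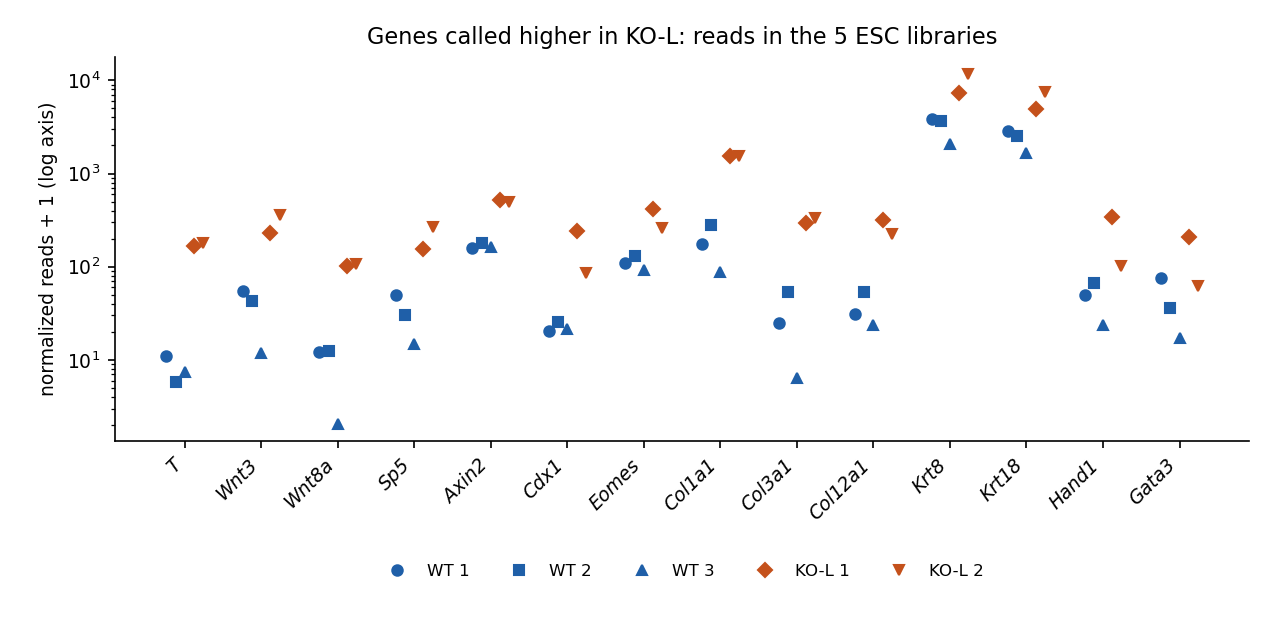
Normalized reads plus 1, on a log axis, of 14 genes called higher in KO-L, 1 marker per library (blue, WT 1 to 3; orange, KO-L 1 and 2). For T the WT libraries lie between 4.73 and 10.1 reads and the KO-L libraries at 168 and 177; Gata3 is the only gene of the 14 whose groups overlap.

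Some collagen genes rose as well. Collagen chains form the fibres (types I, III and V) and networks of the extracellular matrix, and are made by mesenchymal cells. Col1a1 read 174, 281 and 86.0 normalized reads in WT and 1544 and 1552 in KO-L, and Col3a1 read 24.0, 52.0 and 5.37 in WT and 297 and 333 in KO-L. Both KO-L libraries were close to each other and far above WT. In the authors' deposited table Col1a1 had a log2 fold change of 3.29 ± 0.42 (adjusted p 1.86e-11) and Col3a1 of 4.01 ± 0.72 (adjusted p 1.52e-05), and relative to WT 1 and WT 2 the KO-L means were 6.80 and 8.28 times as high.

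Of 28 tested collagens 8 rose and none fell (all genes, 1.37% and 0.726%). Their median log2 fold change was 0.97 in the authors' deposited table and 1.13 against WT 1 and WT 2. Of the 28, 6 had a deposited log2 fold change below 0. The others that rose were Col1a2, Col4a5, Col5a1, Col8a1, Col11a1 and Col12a1, at log2 fold changes from 1.84 to 2.94 in that deposited table of the authors. The sum over the collagen list was 21351, 21158 and 45795 normalized reads in WT 1, 2 and 3 and 26698 and 30468 in KO-L. WT 3 thus lay above both KO-L libraries in that sum. Col5a1, which limits the width of collagen I fibres, read 389, 429 and 187 in WT and 1436 and 1444 in KO-L. Among 32 other matrix genes 3 rose: the matricellular Thbs1 (2135, 2270 and 659 in WT, 5140 and 7027 in KO-L), tenascin C or Tnc (18.4, 44.5 and 11.8 in WT and 313 and 173 in KO-L) and the collagen cross-linking oxidase Lox (22.1, 36.0 and 10.7 in WT and 209 and 208 in KO-L). Their list had a median of 0.15 in the authors' deposited table, with 17 members above 0 and 15 below. Its sum over members with library values was 79213, 77285 and 182324 normalized reads in WT and 106984 and 95261 in KO-L. WT 3 was again the highest library. Smooth muscle actin Acta2 read 651, 1021 and 309 in WT and 3735 and 3256 in KO-L, and Cav1, the coat protein of caveolae, read 59.9, 92.7 and 24.7 in WT and 298 and 322 in KO-L. Ccn4, a Wnt-induced matricellular protein, read 52.5, 71.0 and 29.0 in WT and 362 and 274 in KO-L.

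The list of fibroblast and feeder markers overlaps these genes. Of 22 such markers 18 were tested, 6 rose (Col1a1, Col1a2, Col3a1, Col5a1, Postn and Acta2) and none fell (all genes, 1.37% and 0.726%). All of these but Postn are already named above, so the count, median and sum of this list partly restate the collagen result. The median was 2.32 in the authors' deposited table and 1.51 against WT 1 and WT 2. The sum over the list was 4899, 5322 and 2935 normalized reads in WT and 14591 and 16463 in KO-L. Fap and Dpt were at 0 in all 5 libraries. Decorin (Dcn), a defining fibroblast proteoglycan, read 6.45, 0.946 and 0 in WT and 26.6 and 25.7 in KO-L, Twist2 10.1, 6.62 and 3.22 in WT and 17.4 and 36.0 in KO-L, and Thy1 58.0, 60.6 and 70.9 in WT and 183 and 140.0 in KO-L. The part of other cells in the rise of the collagens was not tested, and in bulk RNA more cells of a type and more RNA per cell cannot be told apart.

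Keratins and trophoblast regulators rose as well. Krt8 and Krt18 pair as the first keratin filaments of simple epithelia, trophectoderm among them. Krt8 read 3846, 3639 and 2049 in WT and 7311 and 11654 in KO-L, and Krt18 read 2860, 2529 and 1656 in WT and 4974 and 7415 in KO-L. Their log2 fold changes in the authors' deposited table were 1.76 ± 0.35 and 1.57 ± 0.33. Krt19, another keratin of simple epithelia, read 1050, 699 and 187 in WT and 1083 and 1898 in KO-L. Of 9 epithelial markers 4 rose (all genes, 1.37%), with a median of 1.12 in the authors' deposited table and 0.77 against WT 1 and WT 2.

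Of 12 trophoblast markers 6 rose and none fell (all genes, 1.37% and 0.726%), 2 of the 6 being the keratins and another Eomes. The remaining ones were the transcription factors Hand1, Gata3 and Esx1. Hand1 read 48.8, 65.3 and 22.6 in WT and 342 and 99.9 in KO-L, Esx1 70.9, 39.7 and 40.8 in WT and 329 and 152 in KO-L, and Gata3 75.6, 35.0 and 16.1 in WT and 206 and 61.8 in KO-L. KO-L 1 was the higher library for all 3, and for Gata3 KO-L 2 overlapped WT. Tpbpa, a marker of mature spongiotrophoblast, was at 0 in all 5 libraries. Hand1, Gata3, Eomes and T also belong to a list of 36 developmental Polycomb targets, of which 24 were tested and all 24 lay at a Suz12 region: 6 rose (Wt1 among them), none fell, and the median was 1.55 in the authors' deposited table. By limma-voom that median was 0.80 without KO-L 1 and 2.03 without KO-L 2. The members that passed are those read at some level in these libraries, and 12 of the list did not reach the minimum.

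The list with the most falls holds genes that answer to ATF4, the transcription factor of the integrated stress response. When amino acids run short or eIF2 is phosphorylated, ATF4 protein rises and switches on amino acid transporters, serine and one-carbon enzymes, and the regulators Ddit3, Trib3 and Chac1. Of 35 tested genes of this list 13 fell and none rose, where 0.726% of all genes fell and 1.37% rose. The list's median log2 fold change was -1.08 in the authors' deposited table. All 13 had KO-L libraries below all 3 WT libraries, as had 98 of the 107 genes called lower and 21.0% of all genes. These genes were called on the same libraries, so nothing follows from that count. The same list is where WT 3 stood out: its sum was 101229, 122698 and 178675 normalized reads in WT 1, 2 and 3 and 83748 and 90270 in KO-L. Against WT 1 and WT 2 alone its median was -0.42, and limma-voom without WT 3 gave 18 of its genes an unadjusted p under 0.05 with a fall and none with a rise (all genes, 7.41% and 9.22%). The primitive endoderm markers, whose sums are given above, were also highest in WT 3, and their part in this result was not tested.

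Promoters of the list carry the ATF4 site in part. The letters TGATGNAA, the core of the C/EBP-ATF response element, were searched on both strands from 250 bases before to 50 after each start in RefSeq promoters of build GRCm38.p6. They occurred in 10 of 31 promoters of the list (32.3%), in 16 of 87 promoters of genes called lower (18.4%) and in 1219 of 27025 genes with a promoter in the reference (4.51%). Of the 13 list genes called lower, 3 held it (23.1%), a smaller share than in the whole list. No share is given for genes called higher or for all genes tested, because promoter entries cover under 80% of either (76.7% and 79.2%). The sites of Chac1 and Vldlr, which fell, and of Nupr1, Jdp2 and Slc7a11, which were not called, are shown with up to 30 bases on each side, with the site in capitals, as TGATGNAA or its reverse complement. Chac1 (chr2:119351019-119351086, plus strand), Vldlr (chr19:27216790-27216857, plus) and Jdp2 (chr12:85599353-85599415, plus) have 1 site each, Nupr1 (chr7:126625543-126625610, minus) has 1, and Slc7a11 (chr3:50443623-50443709, minus) has 2.
Chac1: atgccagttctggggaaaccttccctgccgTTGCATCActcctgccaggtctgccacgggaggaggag
Vldlr: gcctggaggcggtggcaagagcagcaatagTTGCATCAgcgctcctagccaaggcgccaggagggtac
Nupr1: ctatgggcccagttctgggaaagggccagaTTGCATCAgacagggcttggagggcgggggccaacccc
Jdp2: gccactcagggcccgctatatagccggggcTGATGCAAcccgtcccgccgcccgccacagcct
Slc7a11: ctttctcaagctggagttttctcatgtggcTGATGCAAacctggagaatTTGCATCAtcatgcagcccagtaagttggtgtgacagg

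Chac1, a glutathione-degrading enzyme, had the smallest p value of the table. It read 966, 862 and 3366 normalized reads in WT and 61.4 and 194 in KO-L, so even the lower WT libraries were above both KO-L libraries. Its log2 fold change in the authors' deposited table was -3.97 ± 0.33 (adjusted p 1.41e-29), and the mean of WT 1 and WT 2 was 7.17 times the KO-L mean. Trib3, a pseudokinase that damps the response, read 1247, 1497 and 4505 in WT and 315 and 468 in KO-L, a deposited log2 fold change of -2.76 ± 0.34 in the authors' table. Ddit3, the pro-apoptotic factor CHOP, read 243, 182 and 573 in WT and 60.3 and 91.6 in KO-L. Atf4 itself read 9089, 10820 and 16344 in WT and 5557 and 6904 in KO-L, with a log2 fold change of -1.10 ± 0.27 in the authors' deposited table.

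The metabolic members showed the same order of libraries. Gpt2, which makes alanine, read 2413, 3074 and 5789 in WT and 834 and 1216 in KO-L. Mthfd2, a mitochondrial one-carbon enzyme, read 3736, 5082 and 8827 in WT and 2623 and 3021 in KO-L, and Psph, the last enzyme of serine synthesis, 1559, 1786 and 3280 in WT and 1124 and 1174 in KO-L. Slc6a9, a glycine transporter, read 178, 258 and 792 in WT and 88.0 and 135 in KO-L, with WT 3 far above WT 1 and WT 2. For Slc6a9, Vldlr, Psph, Stc2, Mthfd2, Aldh18a1 and Atf4 the KO-L mean was 0.511 to 0.687 times that of WT 1 and WT 2, so much of their deposited fold rests on WT 3. Cebpg, the partner of ATF4 on its sites, and Ddit4, an inhibitor of mTORC1, kept 0.416 and 0.472 of that level.

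Members that did not pass include Asns, Psat1, Phgdh and Slc7a11, at adjusted p of 0.675, 0.445, 0.672 and 0.922 in the authors' deposited table. Nupr1 read 231, 210.1 and 2436 in WT and 97.2 and 97.8 in KO-L, and Gdf15 27.6, 28.4 and 135 in WT and 13.3 and 7.21 in KO-L, neither called. Of 19 cytosolic tRNA synthetases, another set that ATF4 serves, 1 fell (Sars, 11203, 10793 and 16974 in WT and 6153 and 8026 in KO-L) and all 19 had a log2 fold change below 0, with a median of -0.35 in the authors' deposited table. Herpud1, which serves degradation at the endoplasmic reticulum, fell from 675, 679 and 1600 to 249 and 355, while the other 14 tested genes of the endoplasmic reticulum stress list were not called. Vegfa read 690.1, 688 and 2470 in WT and 399 and 404 in KO-L and was the only called gene of 21 in the glycolysis and hypoxia list.

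**Figure D4:**
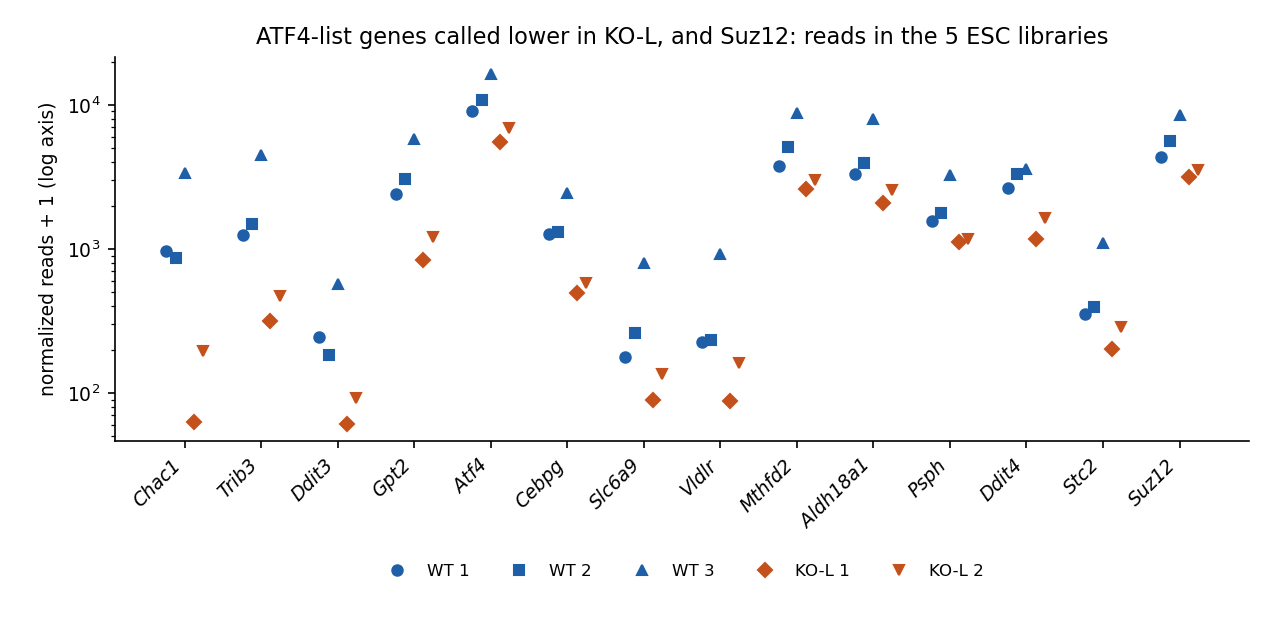
Normalized reads plus 1, on a log axis, of the 13 ATF4-list genes called lower and of Suz12, 1 marker per library (blue, WT 1 to 3; orange, KO-L 1 and 2). Both KO-L libraries lie below all WT libraries for each gene, and WT 3 is the highest; for Chac1 WT reads 966, 862 and 3366 and KO-L 61.4 and 194.

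Of the 12 largest falls among genes with a mean of at least 100, 5 belong to that list. The others were Nkx6-3, Napsa, Hrk, Halr1, Ubap1l, Gna14 and Rnf157. Nkx6-3, a homeobox gene, read 71.9, 97.5 and 352 in WT and 10.2 and 9.27 in KO-L, a log2 fold change of -4.26 ± 0.71 in the authors' deposited table. Napsa, an aspartic protease gene, read 364, 279 and 739 in WT and 64.4 and 46.3 in KO-L, and was lower than every WT library by a wide margin. Hrk, a pro-apoptotic BCL2 family gene, read 145, 84.2 and 934 in WT and 39.9 and 39.1 in KO-L, and Ubap1l 106, 153 and 982 in WT and 71.6 and 83.4 in KO-L, so WT 3 supplies most of both differences. Halr1, a noncoding RNA of the Hoxa locus, read 122, 149.5 and 432 in WT and 37.8 and 39.1 in KO-L. Below a mean of 100, the 4 largest falls were Aqp8, Gm14164, Adm2 and Fut1. Aqp8 had 0, 0.946 and 134 normalized reads in WT and 0 and 1.03 in KO-L, so that its call rests on WT 3 alone.

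A further set of rises came mainly from 1 KO-L library. The 2-cell-like genes, a set that ESC switch on in rare, transient cells, included Zscan4c at 19.3, 18.0 and 0 normalized reads in WT and 351 and 29.9 in KO-L. Of 8 tested genes of this list 5 rose (Zscan4a, Zscan4c, Zscan4d, Zscan4f and Arg2) in the authors' deposited table (all genes, 1.37%). Most of them reach the read minimum through KO-L 1, as do most of the tested Hox genes, so no median is given for either list. Their sum was 77.4, 70.0 and 12.9 in WT and 1609 and 159 in KO-L, so KO-L 1 carried most of it. Zscan4 copies are near-identical, and the counting could split reads among them. Calcoco2 read 575, 763 and 127 in WT and 7083 and 1014 in KO-L, and Osr2, the largest rise in the authors' deposited table at 6.58 ± 1.80, read 1.84, 0 and 0 in WT and 114 and 2.06 in KO-L. Hox genes showed the same imbalance without a call: Hoxd13 read 20.3, 30.3 and 21.5 in WT and 288 and 30.9 in KO-L, and the sum over all 39 Hox genes, 10 of them tested, was 168, 181 and 249 in WT and 1495 and 229.6 in KO-L. These genes were high in all KO libraries. Zscan4c read 903, 543 and 634 in KO, Osr2 199, 188 and 203, Hoxd13 381, 354 and 487, and Calcoco2 3356, 5816 and 3700. The authors' deposited table of KO against WT calls all 8 of these 2-cell-like genes and all 10 Hox genes higher, where it calls 10.7% of all genes higher. Why KO-L 1 and KO-L 2 differ for this set was not tested. In all, 32 of the genes called higher in KO-L were over 2-fold higher in KO-L 1 than in KO-L 2, and 6 the other way.

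Other called genes fell into smaller groups. The cell cycle inhibitors of the Cdkn2 locus, classical Polycomb targets, both rose: Cdkn2a read 117, 106 and 52.7 in WT and 366 and 282 in KO-L, and Cdkn2b 53.4, 58.7 and 31.2 in WT and 206 and 186 in KO-L. Id3, an early BMP target, read 392, 491 and 280.5 in WT and 1768 and 1428 in KO-L, a log2 fold change of 2.1 ± 0.33 in the authors' deposited table, and was the only call among 17 BMP and Id genes. Of 30 imprinted genes 3 rose (all genes, 1.37%). They were the growth factor Igf2 (2.18 ± 0.29 in the authors' deposited table, library reads not recovered), Peg3 (1391, 1149 and 1207 in WT, 6403 and 1837 in KO-L) and Plagl1 (192, 171 and 113 in WT and 860.2 and 380.0 in KO-L). Among p53 targets Plk2 rose, from 975, 1178 and 892 to 3404 and 3148, and so did Perp, from 1375, 1665 and 686 to 2422 and 3090. Ccno and Irgm1, among the 12 largest rises, did not overlap between the groups: Ccno read 56.2, 91.8 and 18.3 in WT and 486 and 214 in KO-L, and Irgm1 192, 166 and 38.7 in WT and 578 and 549.9 in KO-L.

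Pluripotency lists held few calls. Nr0b1, a naive-state factor, fell from 2955, 2670 and 6216 to 1767 and 1155, the only call of 15 naive genes, whose median was -0.38 in the authors' deposited table. It was -0.13 against WT 1 and WT 2, and by limma-voom -0.76 without KO-L 1 and 0.073 without KO-L 2, so its sign depends on KO-L 2. Esrrb read 16524, 14222 and 22098 in WT and 13052 and 6918 in KO-L and was not called. The ERK feedback gene Spry4 fell, from 4326, 4474 and 5909 to 2719 and 2548. Single calls stood in the germline list (Rhox5 up, Sycp3 down), the interferon list (Stat2 down), antigen presentation (Tapbp up), cholesterol synthesis (Hsd17b7 up) and the neural list (Sox3 up). No primitive endoderm marker was called: their median was -0.66 in the authors' deposited table and 1.31 against WT 1 and WT 2, so its sign depends on WT 3. DNA methylation genes held no call, the smallest adjusted p being 0.699 for Dnmt3a and 0.702 for Mbd2 in the authors' deposited table.

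KO-L was next set against 3 groups that ask what the long isoform restores. The log2 fold changes of KO-L and KO, which share the WT libraries, differed at an adjusted p under 0.05 in 86 of 14609 genes, 76 higher in KO-L (0.520%) and 10 lower (0.0685%). The test adds the squared standard errors as if the 2 values were independent, although both use the WT libraries. Among the 76 were Col1a1, Col3a1, Thbs1, Acta2, Plk2, Cav1 and Sp5. Col1a1 read 399.7, 102 and 85.5 normalized reads in the 3 KO libraries against 1544 and 1552 in KO-L, a difference in log2 fold change of 3.35 ± 0.65 (adjusted p 3.50e-04). Thbs1 read 1900, 743 and 407 in KO and 5140 and 7027 in KO-L, and Acta2 1254, 524 and 308 in KO and 3735 and 3256 in KO-L.

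Chac1, Trib3 and Gpt2 were among the 10 lower in KO-L than in KO. Chac1 read 1058, 599 and 1055 in KO and 61.4 and 194 in KO-L, Trib3 1070, 956 and 1060 in KO and 315 and 468 in KO-L, and Gpt2 2342, 2228 and 2320 in KO and 834 and 1216 in KO-L. The groups did not overlap for any of the 3. A direct limma-voom fit of KO-L against KO, without WT, called 1930 genes higher (13.2%) and 1598 lower (10.9%) in KO-L, with 18 of 34 ATF4-list genes lower and 2 higher. Of 1678 genes at Suz12 regions that fit found 203 higher (12.1%) and 233 lower (13.9%) in KO-L, shares near those of all genes, with a median log2 difference of -0.090. T did not pass the difference test: it read 137, 42.1 and 69.6 in KO and 168 and 177 in KO-L, a difference of 1.48 with a 95% interval from -0.46 to 3.43. The 10 tested Hox genes held 0 members whose fold changes differed by that test and 2 lower in KO-L by limma-voom.

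Against the short-isoform rescue the differences were more numerous: 566 of 14378 genes, 372 higher in KO-L (2.59%) and 194 lower (1.35%). Of the 372, 187 lay at a Suz12 region, where the median difference in log2 fold change was 0.39, while at genes of neither region it was -0.029. A direct limma-voom fit of KO-L against KO-S gave 646 genes higher (38.5%) and 261 lower (15.6%) in KO-L among 1678 at Suz12 regions, against 18.9% and 17.9% of all genes, with a median of 0.67 at these regions. Col1a1 read 129 and 226 in KO-S, Krt8 2130 and 2060 and Id3 118 and 105, all below the KO-L libraries. Chac1 ran the other way, at 3711 and 3191 in KO-S, and 14 of the 35 ATF4-list genes were lower in KO-L than in KO-S by the difference test. Primitive endoderm markers moved with that comparison too: all 13 tested were lower in KO-L than in KO-S by limma-voom, where 17.9% of all genes were, and their part was not tested.

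Beside CSex4, which can make only the long isoform from its own locus, KO-L differed in 2 of 14519 genes, 1 higher (0.00689%) and 1 lower (0.00689%). At an unadjusted p under 0.05 the count was 99, and a direct limma-voom fit called 0 of 14637, with 588 at an unadjusted p under 0.05. T read 286 and 68.7 in CSex4 and Col1a1 1091 and 661, and for both genes the CSex4 libraries lay above all WT libraries. The difference in log2 fold change, KO-L minus CSex4, was 0.25 for T with a 95% interval from -2.0 to 2.49, and 0.86 for Col1a1, from -0.45 to 2.17. Intervals of this width leave room for differences of 2-fold and more. The 2 CSex4 libraries were far apart for Chac1, at 72.8 and 801, and for Thbs1, at 22736 and 6334.

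**Figure D5:**
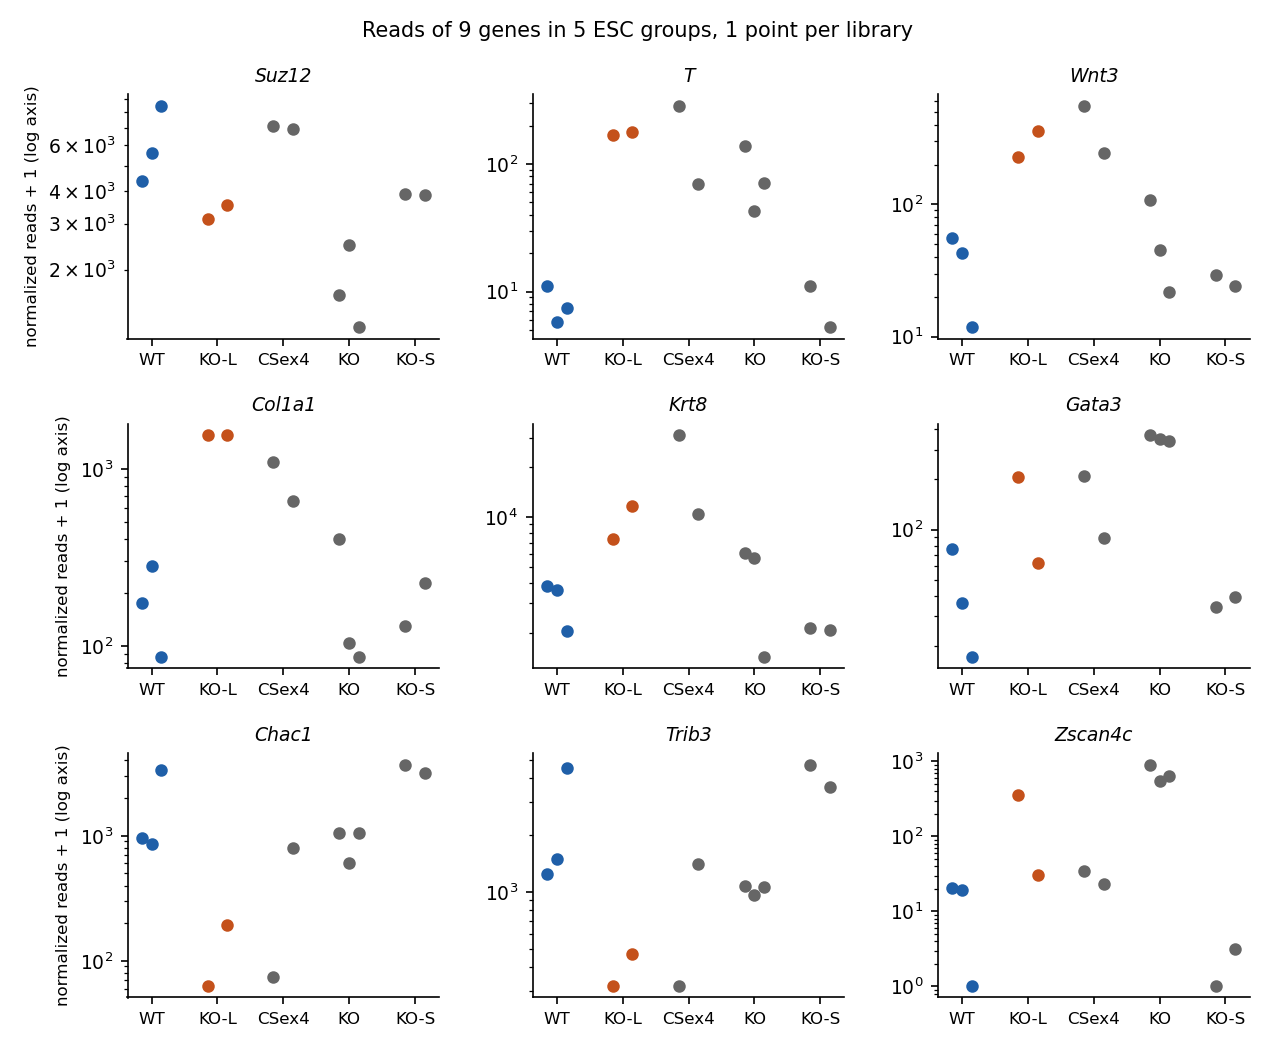
Normalized reads plus 1, on a log axis, of 9 genes in WT, KO-L, CSex4, KO and KO-S, 1 point per library. Col1a1 lies at 1544 and 1552 in KO-L and at 399.7, 102 and 85.5 in KO, while Gata3 lies at 206 and 61.8 in KO-L and 369, 349 and 341 in KO.

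In neuronal precursors, differentiated through embryoid bodies with retinoic acid from day 4 and collected at day 8, the study compared KO-L with KO (2 samples each), and that table shares no library with the ESC ones. There Col1a1 had a log2 fold change of 5.25 ± 0.24 in the authors' deposited table, and 11 of 17 tested fibroblast or feeder markers were called higher in KO-L, where that table calls 11.3% of all its tested genes higher and 13.4% lower. T stood at -1.80 ± 1.49 and Chac1 at 1.92 ± 0.47 in the same authors' deposited table. Of the same 10 Hox genes, 8 were called lower and 2 higher in KO-L precursors.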

How the data were processed

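RNA of 5 ESC libraries (3 WT, 2 KO-L) was compared through the authors' deposited table of log2 fold changes, standard errors, p-values and adjusted p-values. The submitters' processing notes name TopHat, Bowtie, DESeq2 and DiffBind and the builds mm10 and dm3, without versions or roles. The deposited region lists hold coordinates and 1 p-value or q-value per region, and the deposited baseMean values are mean normalized read signal per gene over the libraries of a table. Genes with a baseMean of at least 10 were kept, and calls used the deposited adjusted p under 0.05. The table gives an adjusted p to 13880 of the 14742 genes, and the rest were not called.

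Whole reads per library were solved from the baseMean values of 7 ESC tables (Python 3.11.15, sympy 1.14.0), for genes under 40000 reads. The solver was tested on simulated data, where it returned the true reads for 21656 of 21656 such genes. These reads show library values and entered limma-voom (limma 3.58.1, R 4.3.3) only as alternatives chosen after seeing the data. The deposited fold changes were met within 0.0001 for 286 of 300 genes by a fit that blocks WT 2 with KO-L 1 and WT 3 with KO-L 2. Whether these numbers pair samples beyond the fit is open to 2 pairs only: the log2 differences WT 2 minus WT 3 and KO-L 1 minus KO-L 2 correlated over genes at 0.0018.

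Differences between KO-L and another group were tested as the difference of their log2 fold changes over its standard error, adjusted by Benjamini-Hochberg over all genes tested. Named genes were Suz12, the 12 largest rises and falls among called genes with a baseMean of at least 100, the 4 largest each way below it, called members of the gene lists, and 2 members with the smallest p for a list without a call. Other genes named were added as examples after their values were seen. The members and lists were chosen with earlier results of these data known. Promoters and gene positions came from RefSeq tables of build GRCm38.p6. Some genes that the rule names are not reported here.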

Additional observations from a re-analysis of the deposited data

Results flagged for a closer look

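The KO-L effect differed from that of other ESC groups under the same contrast with WT, by the test of the difference in log2 fold change. It differed from KO in 86 genes, from KO-S in 566 genes and from CSex4 in 2 genes. Those 2 were Lefty2, higher in KO-L by 2.23 on the log2 scale (adjusted p 0.0196), and 4930470H14Rik, lower with a difference of -2.40 (adjusted p 0.0105), named after their values were seen. Among genes of the lists that differed from KO, Ina, a neuronal intermediate filament gene, was higher by 2.37, and Pck2 and Pfkp were lower with differences of -1.93 and -1.71.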

How the results depend on the processing

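At an adjusted p under 0.01, 114 genes were higher and 44 lower in KO-L, and 44, 314 and 0 genes differed from KO, KO-S and CSex4. With limma-voom on the recovered reads, no gene was called in either direction: 0 with no replicate block, 0 with the replicate block (1898 at an unadjusted p under 0.05), and 0 to 0 when each library was left out in turn (1413 to 2916 at an unadjusted p under 0.05). The cause was not tested. A direct limma-voom fit without WT and with no replicate block gave 3528 genes against KO, 5392 against KO-S and 0 against CSex4. With the 1000 Suz12 regions of smallest value, 51 genes at Suz12 regions were called higher, since fewer genes lie at them. The 3 other settings of distance and gene start gave 78 to 101. Without WT 3, Aqp8 reversed to a log2 fold change of 0.14, and the ATF4 list moved to a median of -0.41. In all, 11 list medians moved without WT 3 and 23 stayed. Without KO-L 1 these counts were 15 and 19, without KO-L 2 12 and 22, and with no replicate block 7 and 27. The primitive endoderm median went from -0.66 to 1.30 without WT 3. No other named gene changed direction in these settings, and the counts with a minimum fold, other baseMean minima or centring stayed within 1.5 times. Library values are lacking for 104 genes, among them those with 40000 or more reads in a library.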
